A study of Capra hircus with 12 samples.

Results

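The 83 loci described here were read at a low level in the testis of young black goats (Capra hircus) and stood far higher from puberty on. They were chosen by a rule on FPKM values (fragments per kilobase of locus, scaled to library depth). The rule took loci with a StringTie identifier of the form MSTRG below an upper limit on its number, and a mean under 20 FPKM over 11 libraries. The highest of the 6 libraries of the younger ages had to reach 0.5 FPKM, the lowest of the 5 libraries of the older ages had to be at least 4 times that value, and the means of the older ages had to differ by less than 1.5-fold. Of 24116 listed loci, 21741 passed the limits on number and mean, 10771 of these also reached 0.5 FPKM in a younger library, 107 of those showed the factor of 4, and 83 were left after the limit on the older ages. The rise itself was therefore fixed by the choice of loci and is given without a test.

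The younger ages are neonatal (titles D3, 3 libraries) and prepuberty (D30, 3 libraries). The older ages are puberty (D90, 2 libraries, named replicates 2 and 3 in the labels, although the numbers in their tables' own names differ from these) and postpuberty (D180, 3 libraries); puberty replicate 1 was not analysed here. All animals are labelled as wild type, all samples as testis, and no treatment is named. Nothing in the labels says whether libraries of one age came from separate animals, so tests measure the spread between these libraries.

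The testis of a newborn ruminant holds solid cords of Sertoli cells, which support germ cells, with few germ cells, surrounded by steroid-producing Leydig cells and peritubular cells. At puberty germ cells enter meiosis, spermatocytes and spermatids come to fill the tubules, and the RNA content of the organ changes with them. The transcriptome of meiotic and later germ cells is known for many long non-coding RNAs and testis-restricted transcripts. A locus that is low in a juvenile testis and abundant later can be read in germ cells that multiply, or can be raised within cells already present. In RNA from whole testis, fewer cells of a type and less RNA per cell cannot be told apart.

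None of the loci has a name here. Of the 24116 identifiers, 0 matched the 28911 genes of the goat gene table, and 0 of 40 marker symbols for testis cell types could be found among them, so the labelled tissue was not checked against its markers. Whether a member is coding or non-coding, and what it does, is not stated by the tables. For all but 4 loci the values are whole multiples of 1 read, which gave the depth and a length for each locus. The unit called a read here may be a fragment, that is, a pair of reads. An FPKM of 1 on a locus of 1 kb stood for 19.1 reads in the shallowest library (neonatal replicate 3) and 35.6 in the deepest (puberty replicate 2).

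Summed over the 83 members, reads made up a small and even share in the young testis and a share over 10 times larger in the older one. The members took 158, 167 and 176 RPM (reads per megaread of the library's scaling total) in neonatal replicates 1, 2 and 3, and 164, 168 and 159 in prepuberty replicates 1, 2 and 3. In puberty replicates 2 and 3 they took 2115 and 2426, and in postpuberty replicates 1, 2 and 3 they took 2601, 2603 and 2792. The mean was 167 ± 9.15 (SD, n = 3) for neonatal and 163 ± 4.57 (SD, n = 3) for prepuberty testes. It was 2270.5 ± 220.3 (SD, n = 2) at puberty and 2665 ± 109.9 (SD, n = 3) after it. In these sums the neonatal and prepuberty libraries interleave, and the lowest older library lies more than 10 times above the highest younger one. The sums lean on members with many reads: MSTRG.44073 alone held 1674 of the 9895 neonatal and 3004 of the 12907 prepuberty reads. The median member stood at 0.441, 0.515 and 0.548 FPKM in neonatal replicates 1 to 3 and at 0.435, 0.420 and 0.378 in prepuberty, so by this measure each prepuberty library lay below each neonatal one. It stood at 8.07 to 10.03 FPKM in the 5 older libraries.

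Single members differed widely in the size of that step. The ratio of the older to the younger mean ran from 6.99 to 403, with a median of 17.1 and quartiles of 11.4 and 34.6. The separation, defined as the lowest older value over the highest younger value, ran from 4.03 to 63.5 with a median of 6.32. It lay between 4 and 5 for 19 members, between 5 and 8 for 32, between 8 and 16 for 19, and at 16 or more for 13. All of these values come from the contrast that chose the loci and describe it. They also depend on how libraries are scaled: the median ratio of 17.1 became 25.2 after median of ratios scaling and 28.2 after rescaling to TPM (each library brought to the same sum). Before that rescaling the FPKM sums differed with age. They were 125743 to 129361 in neonatal, 72751 to 78774 in prepuberty and 55125 to 67027 in the 5 older libraries.

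**Figure D1:**
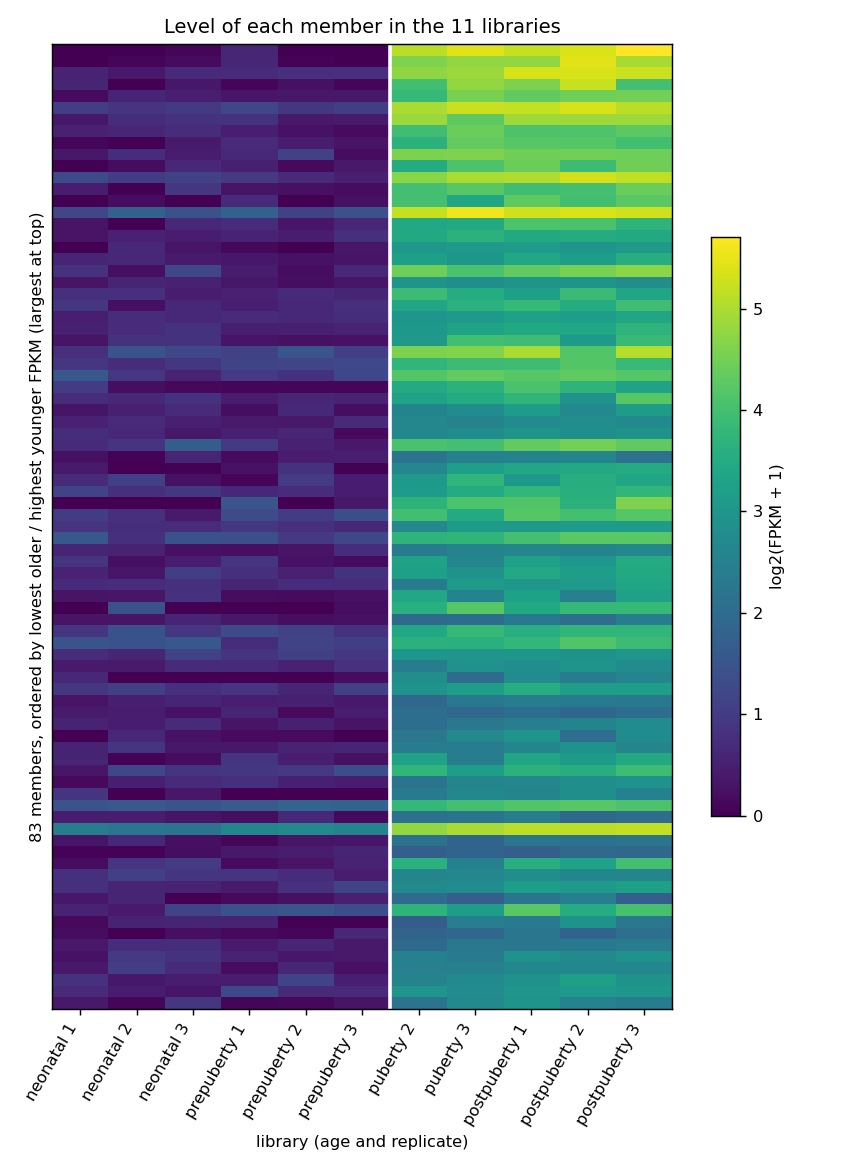
Colour gives log2(FPKM + 1) of each of the 83 members (rows, ordered by separation, largest at the top) in the 11 libraries (columns), and the white line parts the younger from the older ages. The right-hand columns are lighter in every row by the rule, and single lighter cells on the left mark members whose early reads sit mostly in 1 library.

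**Figure D2:**
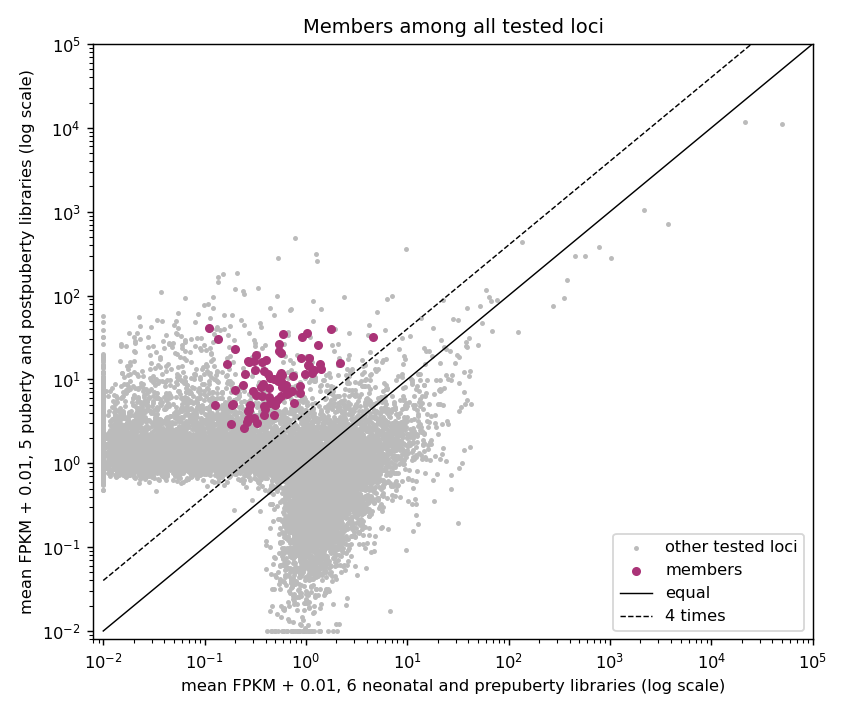
Mean FPKM over the 5 older libraries is plotted against mean FPKM over the 6 younger libraries for each tested locus, both on log axes after adding 0.01. The 83 members (purple points) lie above the dashed line of a 4-fold difference, between 0.101 and 4.56 FPKM in the younger testis.

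The early presence of these loci was set by the highest of 6 libraries, and it held to very different degrees. Only 13 of the 83 members reached 0.5 FPKM in all 6 younger libraries, 38 did so in at least 3, and 32 in a single one. A read was found in all 6 younger libraries for 66 members, in 5 for 8, in 4 for 3, in 3 for 1 and in 2 for 5. An FPKM of 1 was reached in some younger library by 31 members. The mean over the younger libraries was at least 0.5 FPKM for 37 members.

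The 13 members at or above 0.5 FPKM in every younger library are called the core here, by a condition chosen after the data were seen. Not all were read evenly: MSTRG.38873 ran from 0.647 to 1.97 FPKM over the younger libraries. Younger means of the 13 ran from 0.635 to 4.56 FPKM, on 94 to 4678 reads, and their ratio of older to younger mean from 7.05 to 35.1, with a median of 10.3. The most abundant early member was MSTRG.44073 (implied length 7261 bases). It had 4.37, 3.70 and 3.56 FPKM in neonatal replicates 1 to 3, 5.19, 5.57 and 4.96 in prepuberty, 26.6 and 30.8 in puberty replicates 2 and 3, and 34.1, 34.1 and 35.1 in postpuberty. All prepuberty values lay above all neonatal ones, and the spread within each age was small beside the step to puberty. MSTRG.313928 (1597 bases) followed the same order of ages at a lower level, with 1.77, 2.01 and 1.80 FPKM in neonatal, 2.13, 2.63 and 2.51 in prepuberty, 12.9 and 15.1 in puberty, and 16.9, 17.7 and 16.3 in postpuberty libraries.

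Other members of the core started lower than MSTRG.44073. MSTRG.312383 (2783 bases) had 1.31, 2.38 and 1.67 FPKM in neonatal and 2.43, 1.18 and 1.67 in prepuberty libraries, against 36.03 and 47.2 in puberty and 38.3, 40.5 and 38.03 in postpuberty. Neonatal and prepuberty values overlapped throughout, as did puberty and postpuberty values. MSTRG.307132 (2569 bases) had the largest ratio of the core. Its FPKM was 1.04, 0.813 and 0.956 in neonatal, 1.31, 0.885 and 1.08 in prepuberty, 30.6 and 37.1 in puberty, and 35.9, 40.3 and 33.9 in postpuberty libraries. MSTRG.283484 (857 bases) varied more in the young testis, with 1.93, 0.713 and 1.71 FPKM in neonatal and 1.61, 0.915 and 1.31 in prepuberty libraries, before 12.2 and 12.3 in puberty and 15.3, 18.1 and 18.1 in postpuberty.

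The core also holds 2 of the 3 longest members, where many reads stand behind a low FPKM. MSTRG.89737 (15424 bases) had 0.833, 0.677 and 0.654 FPKM in neonatal and 0.866, 0.691 and 0.546 in prepuberty libraries, on 1517 reads. In puberty it had 5.47 and 7.58, and in postpuberty 7.20, 7.91 and 7.74. MSTRG.238634 (12381 bases) had 0.625, 0.642 and 0.697 FPKM in neonatal and 0.515, 0.681 and 0.653 in prepuberty libraries, then 4.22 and 7.58 in puberty and 6.99, 7.45 and 9.23 in postpuberty. The 6 younger libraries of each locus lay close together, and the puberty libraries of MSTRG.238634 differed from each other by more than the postpuberty libraries of either locus. The longest member, MSTRG.277211 (24666 bases), was outside the core, with 0.460, 0.355 and 0.602 FPKM in neonatal and 0.227, 0.419 and 0.237 in prepuberty libraries, although 1259 reads lay on it there; in puberty it had 3.18 and 3.89 and in postpuberty 4.43, 4.98 and 5.75.

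At the other end, 12 members had over 50% of their summed younger FPKM in 1 library. These were short and thinly read, with a median implied length of 666 bases and a median of 16 reads over the 6 younger libraries, against 1764 bases and 131 reads in the other 71. Across the 83 members, the share in the highest library fell as the number of younger reads rose (Spearman rho -0.83, n = 83; both come from the same 6 libraries). The highest younger value rested on under 10 reads for 7 members. Of the 12, 4 had that value in prepuberty replicate 1, 3 in neonatal replicate 1, 2 in neonatal replicate 2 and 1 each in neonatal replicate 3 and prepuberty replicates 2 and 3.

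Prepuberty replicate 1 stands apart in a way that touches these members. There were 38 loci with no read in the other younger libraries and at least 10 FPKM in each older one, and in prepuberty replicate 1 their summed FPKM was 0.356% of their older mean. For loci chosen in the same way, with prepuberty replicate 1 taking no part, the other 5 younger libraries stood at 0.0294% to 0.0540%. The 4 members whose early reads lie mostly in that library stood there at 1.30% (MSTRG.339560), 1.80% (MSTRG.168235), 3.95% (MSTRG.9030) and 11.5% (MSTRG.216304) of their older mean. The part of that background in their values was not tested. Without prepuberty replicate 1 the rule gave 77 loci, 75 of them among the 83. The 4 were among the 8 members lost, which was fixed in advance, since each reached 0.5 FPKM in that library alone. MSTRG.339560 and MSTRG.312383 were lost without any one of the 6 younger libraries, since their mean over the other 10 then passed 20 FPKM.

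MSTRG.339560 (704 bases) is the clearest such case, and it was also the member with the highest older mean and the largest separation. It had 0.530 FPKM in prepuberty replicate 1, from 10 reads, 0.0743 in neonatal replicate 3, from 1 read, and no read in the other 4 younger libraries, where 3 reads would be 0.159 to 0.217 FPKM. In puberty replicates 2 and 3 it had 33.7 and 41.9 FPKM, and in postpuberty 35.9, 40.5 and 51.2. MSTRG.168235 (901 bases), second by separation, had 0.538 FPKM in prepuberty replicate 1 (13 reads) and at most 0.116 in the other younger libraries, before 23.5 and 26.6 in puberty and 26.6, 43.1 and 30.03 in postpuberty. The 2 largest separations among the 83 thus belong to loci at 0.116 FPKM or less in 5 of the 6 younger libraries. The shortest members showed the same concentration. MSTRG.83355 (245 bases) had 8 of its 9 younger reads in neonatal replicate 2 (1.66 FPKM), and MSTRG.216304 (263 bases) had 13 of its 15 in prepuberty replicate 1 (1.84 FPKM) and none in neonatal testes, where 3 reads would be 0.555 to 0.596 FPKM. They reached 9.99 to 17.6 and 11.8 to 23.2 FPKM in the 5 older libraries. MSTRG.225763 (362 bases) is the third by shortness and had 13 reads spread over 5 younger libraries, at most 0.578 FPKM, and 10.3 to 21.3 FPKM in the older ones.

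Other members with a high older level had reads in every younger library. MSTRG.96676 (1485 bases) came next by separation, at 35.2. It had 0.459, 0.309 and 0.634 FPKM in neonatal and 0.628, 0.739 and 0.706 in prepuberty libraries, then 26.0 and 27.9 in puberty and 40.4, 39.9 and 37.8 in postpuberty. Both puberty values lay below all 3 postpuberty values, within the 1.5-fold that the rule allowed between the means. MSTRG.353086 (2119 bases) had 1.43, 1.0096 and 1.13 FPKM in neonatal and 0.916, 0.592 and 0.406 in prepuberty libraries, against 24.9 and 30.4 in puberty and 31.5, 39.3 and 34.9 in postpuberty. Its prepuberty values all lay under its neonatal ones.

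MSTRG.228010 (2353 bases) and MSTRG.26946 (400 bases) followed by separation, at 28.6 and 25.9. MSTRG.228010 had 0.517, 0 and 0.289 FPKM in neonatal and 0.0634, 0.200 and 0.0795 in prepuberty libraries, and varied in the older testis, with 14.8 and 26.4 in puberty and 22.8, 36.6 and 15.1 in postpuberty. MSTRG.26946 had 0.122, 0.509 and 0.392 FPKM in neonatal and 0.280, 0.294 and 0.281 in prepuberty libraries, on 17 reads in all, then 13.2 and 22.3 in puberty and 18.9, 20.7 and 21.9 in postpuberty. The older libraries of both overlapped between puberty and postpuberty.

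**Figure D3:**
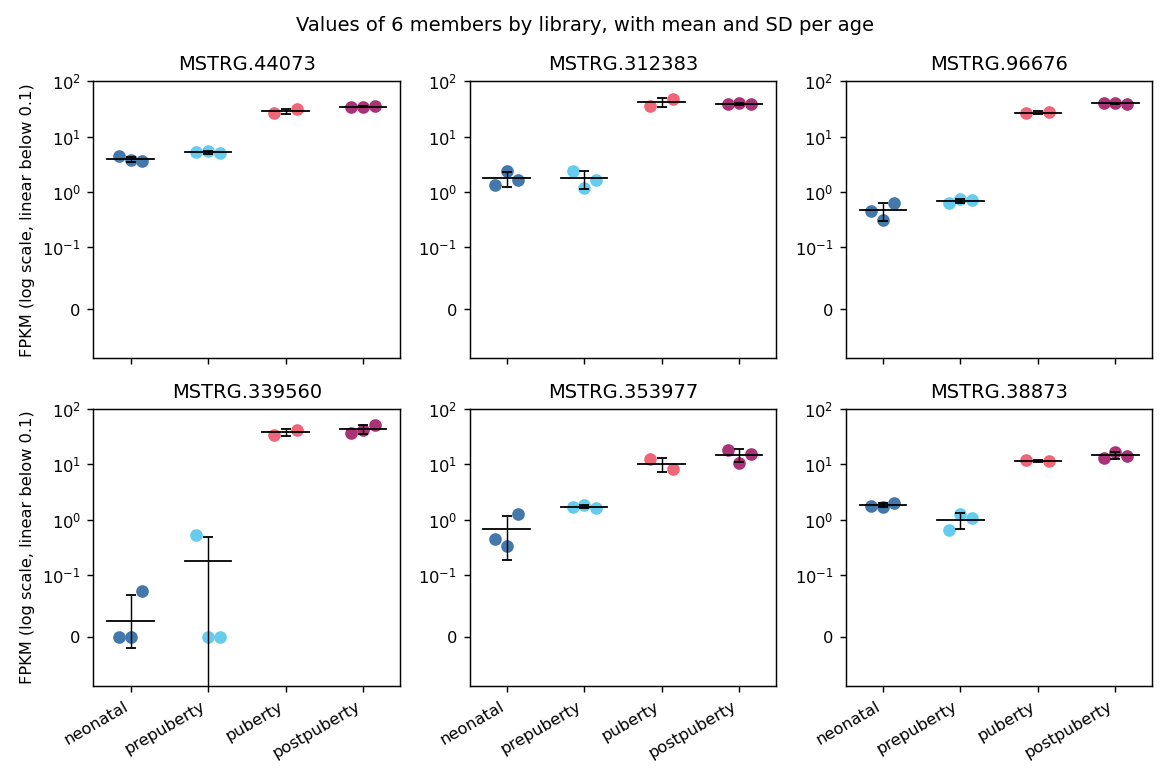
Each point is the FPKM of 1 library (log axis, linear below 0.1), the line is the mean of the age and the bar its SD, for 6 members. MSTRG.44073, MSTRG.312383 and MSTRG.96676 have reads in every young library, MSTRG.339560 is at 0 in 4 of 6, and MSTRG.353977 and MSTRG.38873 differ in opposite directions between neonatal and prepuberty testes.

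Near the factor of 4 the choice is narrow. The members with the smallest separation were MSTRG.201341 at 4.03, MSTRG.133157 at 4.08 and MSTRG.337484 at 4.13. The nearest loci outside, which met all other parts of the rule, were MSTRG.48530 at 3.997, MSTRG.339130 at 3.98 and MSTRG.314188 at 3.98. There were 6 members within 10% above the factor and 17 loci within 10% below it. In each of those 3 members a single younger library sets the value: neonatal replicate 3 with 0.875 FPKM for MSTRG.201341, prepuberty replicate 1 with 1.41 for MSTRG.133157 and prepuberty replicate 2 with 1.20 for MSTRG.337484. The next highest younger values of these loci were 0.306, 0.618 and 0.746 FPKM.

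From puberty to postpuberty the rule limited the size of the difference and set no direction for it. The postpuberty mean was the higher one for 73 members and the puberty mean for 10, with ratios from 0.838 to 1.49 and a median of 1.20. Postpuberty was thus higher for 88.0% of the members, against 71.9% of the 6244 other tested loci that met the same limits on number, mean and older ages. These shares are descriptions, since the lowest older value decided membership and the other loci need not be raised in the older testis. Among the 5 older libraries, puberty replicate 2 was the lowest for 42 members (50.6%) and for 26.8% of those other loci, and puberty replicate 3 was the lowest for 19 members (22.9%) and for 37.3% of the others. The puberty pair differed: 58 of the 83 members were higher in replicate 3 than in replicate 2. Without puberty replicate 2 the rule gave 104 loci, 74 of them among the 83, and without puberty replicate 3 it gave 91, of which 70 were among the 83.

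The library with the highest younger value was not spread over the members as over other loci. It was neonatal replicate 1, 2 or 3 for 11, 17 and 20 members, and prepuberty replicate 1, 2 or 3 for 14, 9 and 12. Among 6693 other tested loci with the same limits on number, mean and early level, the 3 neonatal libraries were highest for 15.6%, 29.1% and 28.1%. The 3 prepuberty libraries were highest for 8.92%, 10.9% and 7.41% of them, against 16.9%, 10.8% and 14.5% of the members. These shares are descriptions, since the members were chosen on the same libraries.

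**Figure D4:**
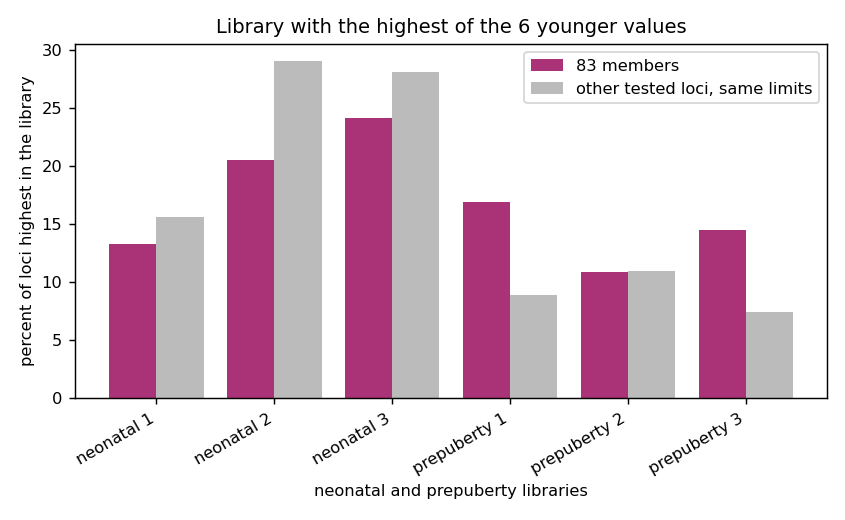
Bars starting at 0 give the percent of loci whose highest younger FPKM was in each of the 6 younger libraries, for the 83 members and for 6693 other tested loci. Prepuberty replicate 1 is highest for 16.9% of members and 8.92% of other loci.

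The rule set no neonatal level against a prepuberty level, so the first month of life is the one step between ages that could be tested in these loci. No member passed the test: 0 of 83 rose and 0 fell from neonatal to prepuberty (limma on log2(FPKM + 1), Benjamini-Hochberg adjusted p under 0.05 and a change of at least 1). Over all 12954 tested loci, 2.07% passed (0.826% higher and 1.24% lower). All 83 members had entered that test through their older libraries. At an unadjusted limma p under 0.05 there were 10 members, 7 higher and 3 lower in prepuberty, and 22.5% of all tested loci. The median log2 change was -0.052 over members and -0.030 over all tested loci, and the largest change of a member was 0.72. The sign of these small medians depends on scaling: for members the median was 0.024 under median of ratios, 0.075 under quantile normalization and 0.52 under TPM, and over all tested loci it was 0, -0.0057 and 0.19.

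The low level of these loci limits what that test could show. On this scale a locus absent at one age and present at the other reaches a change of 1 only if its younger mean is at least 0.5 FPKM, which held for 37 members. The other 46 members could not be called, so for them the outcome was fixed in advance. With a pseudocount of 0.1 in place of 1, 9 members changed by at least 1, a size not counted over all tested loci. Of these, MSTRG.304722 alone was called (log2 change 1.52 ± 0.28 SE, limma adjusted p = 0.0162), against 4.95% of all tested loci. With TPM, 11 members were called, all higher in prepuberty. Over all tested loci 8.43% were called under TPM, 994 of them higher and 98 lower in prepuberty. With equal FPKM sums at an unchanged weight of the pseudocount, 1 was called (MSTRG.353977, log2 change 1.014, limma adjusted p = 0.00587). In that setting 361 of all 12954 tested loci were called higher and 15 lower in prepuberty.

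Libraries of the 2 young ages did not overlap for 13 members. Prepuberty lay above neonatal in 5 members (6.02%), against 6.23% of all tested loci, and below it in 8 (9.64%), against 17.4% of all tested loci. MSTRG.353977 (751 bases) had the largest change of the 5 on the log2(FPKM + 1) scale. It had 0.454, 0.339 and 1.25 FPKM in neonatal and 1.69, 1.83 and 1.59 in prepuberty libraries, and changed by 0.72 ± 0.23 (SE) on the log2 scale, with a limma adjusted p of 0.0813 (0.00495 to 0.256 over the alternatives). Neonatal replicate 3 sat closer to the prepuberty libraries than to the other neonatal ones, and without it the log2 change was 0.95 (limma adjusted p = 0.0339). The locus then stood at 12.1 and 8.14 FPKM in puberty and 18.1, 10.6 and 15.4 in postpuberty.

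MSTRG.304722 (1310 bases) had the lowest early values of the 5, with 0.0372, 0.0389 and 0.160 FPKM in neonatal and 0.313, 0.359 and 0.514 in prepuberty libraries. Its log2 change was 0.37 ± 0.11 (SE, limma adjusted p = 0.0610, 0.00207 to 0.225 over the alternatives), on 47 reads in all. In the older testis it had 2.34 and 2.59 FPKM in puberty and 2.33, 2.90 and 2.82 in postpuberty. MSTRG.365596 (2892 bases), a member of the core, had 0.859, 0.652 and 0.886 FPKM in neonatal and 1.26, 1.29 and 1.38 in prepuberty libraries (log2 change 0.36 ± 0.12 SE, limma adjusted p = 0.0811, 0.00180 to 0.254 over the alternatives). It went on to 12.6 and 14.03 in puberty and 14.3, 17.02 and 13.5 in postpuberty. The remaining 2 with prepuberty above neonatal were MSTRG.44073 and MSTRG.313928, the most abundant early members, whose limma adjusted p was 0.0793 and 0.203.

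MSTRG.38873 (980 bases) had the largest change in the other direction on that scale and the smallest adjusted p of all members. It had 1.79, 1.72 and 1.97 FPKM in neonatal and 0.647, 1.24 and 1.07 in prepuberty libraries, before 11.8 and 11.2 in puberty and 12.8, 16.8 and 14.1 in postpuberty. Its log2 change was -0.52 ± 0.14 (SE, limma adjusted p = 0.0429), under the size of 1 needed for a call; by adjusted p alone it was 1 of 83 members, against 1299 of all 12954 tested loci. The adjusted p was under 0.05 in 7 of 22 alternatives and ran up to 1, with equal FPKM sums, where the log2 change was -0.09. Without prepuberty replicate 1 the change was -0.39 (limma adjusted p = 0.157). MSTRG.353086, given above, came next, at -0.43 ± 0.15 (SE, limma adjusted p = 0.109, 0.0659 to 1 over the alternatives). MSTRG.289620 (628 bases) had 1.008 FPKM in neonatal replicate 1 and 0.162 and 0.0832 in replicates 2 and 3, against 0.0594, 0.0624 and 0.0596 in prepuberty. Each prepuberty value is 1 read, and so is that of neonatal replicate 3, so the gap between them comes from library depth alone. The log2 change of MSTRG.289620, -0.36 ± 0.24 (SE, limma adjusted p = 0.487, 0.221 to 1 over the alternatives), rests on neonatal replicate 1. The locus had 10.2 and 11.7 FPKM in puberty and 15.7, 12.003 and 8.73 in postpuberty.

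**Figure D5:**
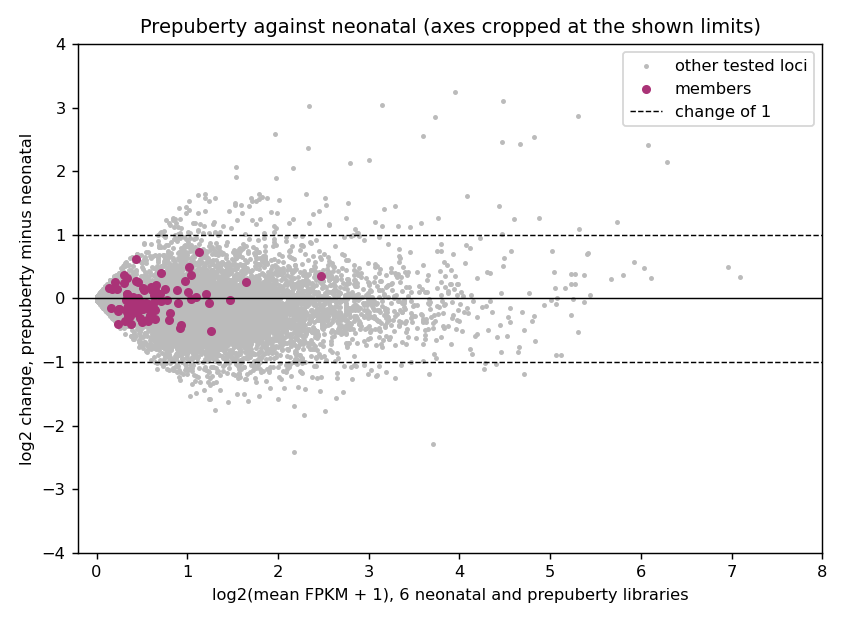
The log2 change from neonatal to prepuberty is plotted against log2(mean FPKM + 1) over the 6 younger libraries for all tested loci, with dashed lines at a change of 1 in either direction. The axes are cropped at the limits shown. The 83 members (purple points) all lie between the dashed lines, and most lie at the left, where the added pseudocount of 1 narrows the reachable range.

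Members were shorter than other tested loci, in a way that differed with how many younger libraries reached the floor. The rule set no length, but its limits are in FPKM, which is scaled to length. The implied length had a median of 1470 bases (quartiles 855.5 and 3126) in members and 2448 (1066 and 5692) in the other 11642 tested MSTRG loci. Among the 6693 other tested loci with the same early floor, number limit and mean, the median was 2834. The 13 members at the floor in all 6 younger libraries had a median of 2569 bases, and the 32 at the floor in 1 library had 1103.5. These lengths were not tested. An implied length is the smallest one that gives whole reads in every library, and the true length may be a multiple of it.

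The members lay scattered over the assembly numbers, from 158 to 368598. The meaning of these numbers as genome positions was not analysed here. Only 2 pairs of members had numbers within 10 of each other. MSTRG.115543 (1816 bases) and MSTRG.115545 (4230 bases) are the closer pair. MSTRG.115543 had 0.322, 0 and 0.0288 FPKM in neonatal and 0.205, 0.799 and 0.0206 in prepuberty libraries, and MSTRG.115545 had 0.691, 0.542 and 0.297 and then 0.406, 0.528 and 0.0973. In the older libraries MSTRG.115543 had 5.26 and 8.33 FPKM in puberty and 9.61, 9.83 and 10.3 in postpuberty, and MSTRG.115545 had 5.29 and 5.85 and then 6.73, 6.15 and 6.66. Prepuberty replicate 3 was the lowest prepuberty library for both, while their highest younger libraries differed.

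MSTRG.96686 (1408 bases), 10 numbers after MSTRG.96676, had 1.003, 0.723 and 0.334 FPKM in neonatal and 1.51, 1.002 and 1.59 in prepuberty libraries, then 14.7 and 10.1 in puberty and 17.5, 14.9 and 17.5 in postpuberty. Its ratio of older to younger mean was 14.5, against 59.4 for MSTRG.96676, so the pair shared the direction and not the size. Around all members, 83 tested loci that are not members lay within 10 numbers. Of these, 33 (39.8%) had an older mean at least 4 times the younger one, against 45.7% of all tested MSTRG loci. The numbers next to a member held no higher share of loci raised in the older testis than the table as a whole.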

How the data were processed

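The authors deposited 1 table of FPKM values per library, without a header. HISAT2 2.1.0 and StringTie 2.1.1 were used, per the submitters' processing notes; the sources used here do not give the counter, genome build, annotation or filters. Per the labels' protocols, TRIzol extracts of total RNA went into an lncRNA preparation kit. The steps between low FPKM values gave whole reads within 0.002 reads for 24112 of 24116 loci, with scaling totals of 19128357 to 35614224 reads and a whole-base implied length per locus; intervals and floors of 3 reads cover counting error only. Loci with at least 1 FPKM in at least 2 libraries (12954) entered limma 3.58.1 (R 4.3.3) on log2(FPKM + 1). The model had a variance trend and a mean for each age over the 11 libraries. Its p-values were two-sided and Benjamini-Hochberg adjusted over all tested loci. The procedure was tested on simulated data, with changes placed only in loci with a neonatal mean over 2 FPKM. Among the members only MSTRG.44073 exceeded that level, so the simulation does not show how changes at the level of the others are found. With 3 libraries against 3, an exact permutation test of 1 locus cannot reach a two-sided p under 0.1, so none was run.

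Named members are those with the 5 highest older means, 5 highest younger means, 5 largest and 3 smallest separations, the 3 loci just outside the factor, the 3 longest and shortest, pairs with near numbers, and the 3 largest non-overlapping changes in each direction between the younger ages. MSTRG.9030 was named after its values were seen. The members, lists and rules were chosen with earlier results of these data known. Alternatives covered scaling, pseudocount, filter, the parts of the rule and leaving out each library. Replicate numbers were not taken to pair libraries across ages. Same-numbered libraries' deviations from their age means correlated at -0.12 to 0.05 over 15 pairs, and those of other numbers at -0.08 to 0.12 over 30. Deviations within an age depend on each other, so these values cannot settle whether libraries are paired.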

Additional observations from a re-analysis of the deposited data

How the results depend on the processing

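The number of members moved with the rule: 131 at a factor of 3, 49 at 6, 272 with an early floor of 0.25 FPKM, 31 with 1 FPKM, and 1000 in TPM, where the same limits stand in another unit (0 shared). Conditions chosen after seeing the data left 51 (second-highest younger value at least 0.5), 37 (younger mean) and 13 (all 6 libraries). Median of ratios scaling gave 124, of which 58 were among the 83. With 1 library left out the number was 76 to 104. The median ratio was 25.2 (median of ratios), 28.2 (TPM) and 16.2 to 19.01 with 1 library left out. Between neonatal and prepuberty, calls were 1 (pseudocount 0.1), 11 (TPM) and 1 (equal FPKM sums, added later), and 0 in the other alternatives, each library left out and a pseudocount of 0.25 (added later) included. The calls over all tested loci in the settings with a called member are given above. The median change was -0.096 (pseudocount 0.1), -0.095 (0.25), 0.024 (median of ratios), 0.075 (quantile), 0.52 (TPM), 0.18 (equal sums) and -0.052 to -0.0097 with 1 library left out (-0.048 without prepuberty replicate 3); the cause was not tested. The replicate block gave 0 calls, although the numbers were not taken to pair the libraries. Of 616 recomputed changes of 28 named loci, 10 gained a call and 39 changed sign with no call. Early depth was low, with a median of 111 reads per member over 6 libraries; requiring 10 reads in the highest younger library left 76 members.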

Other observations

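The limit on the mean left out 12 loci that met every other part of the rule; these are more abundant in the older testis. Their older means ran from 46.8 to 186 FPKM and their ratios of older to younger mean from 13.9 to 1278, with a median of 286. The highest, MSTRG.381237 (462 bases), had 0.0754 ± 0.131 FPKM (SD, n = 3) in neonatal and 0.324 ± 0.490 (SD, n = 3) in prepuberty testes, against 160.4 ± 7.52 (SD, n = 2) at puberty and 203 ± 14.6 (SD, n = 3) after it. Of the 12, 6 reached the early floor in a single younger library, which was prepuberty replicate 1 for all 6. In that library, loci without a read in the other younger libraries stood at a larger percent of their older mean, as given above. MSTRG.343820 belongs both to these 6 and to the 38 loci behind that percent, which was thus computed partly from it. The part of that background in these values was not tested. MSTRG.29211 (5853 bases) alone was at the floor in all 6 younger libraries. It had 1.99 ± 1.85 FPKM (SD, n = 3) in neonatal and 12.1 ± 6.73 (SD, n = 3) in prepuberty testes, against 107 ± 37.3 (SD, n = 2) at puberty and 91.5 ± 12.4 (SD, n = 3) after it. These loci were picked after their values were seen.

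The limit on the older ages left out 24 further loci. Of these, 22 were higher in postpuberty and 2 in puberty, with ratios between the older means of 1.51 to 2.72. A further 1224 tested loci had the same separation and older ratio and at least 1 read in a younger library, but stayed under 0.5 FPKM in all 6. The 83 are thus the upper end of a much larger set with few reads in the young testis.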
